A study of Mus musculus with 6 samples.

Results

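The MYC, MAX and MXD network is described here through 10 genes of the 21929 in the deposited table, chosen by symbol: Myc, Mycn, Max, Mxd1, Mxd3, Mxd4, Mxi1, Mnt, Mlx and Odc1. Each symbol matched 1 row of the table. The RNA came from co-cultures of L929, a mouse fibroblast line, with tumour cells. In the 3 Biotin-positive libraries the L929 cells carried a biotin mark of contact with the tumour cells, for which the labels use the unexplained abbreviation MFCSTCL. The 3 Biotin-negative libraries hold L929 cells without the mark, labelled as uninteracted, from co-culture. The labels give 1 batch date for all 6 libraries, and no genotype, time point, transgene or agent other than co-culture. They do not say how the mark was attached, how the cells were separated, or whether the 3 libraries of a group were separate cultures. P-values therefore rest on the spread among these libraries alone, and that spread may be technical.

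MYC proteins bind DNA as a pair with MAX and raise the transcription of genes for growth, ribosome production and metabolism. The MXD proteins and MNT compete for MAX, bind the same E-box sequence and recruit SIN3 corepressors with histone deacetylases, so the balance between the partners sets the output of shared target genes. MLX is a parallel hub that pairs with MondoA (gene Mlxip) or ChREBP (gene Mlxipl), which respond to glucose metabolites, and with some MXD proteins and MNT. Odc1 encodes ornithine decarboxylase, the entry enzyme of polyamine synthesis and a classical MYC target. In fibroblasts MYC is known as an early growth-factor response gene.

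Levels are FPKM, fragment numbers scaled by gene length and library size. The gene lengths used are not given in the sources used here. Orders, sums, shares and ratios between genes assume that these lengths make levels comparable. The FPKM of a library summed to between 349753 and 356681 in the Biotin-positive group and between 337771 and 340511 in the Biotin-negative group; the read depth is unknown. Across genes, Pearson's r of log2(FPKM + 1) was 0.998 to 0.999 within a group and 0.977 to 0.978 between the groups. Of 12 fibroblast markers 9 reached 1 FPKM in at least 3 libraries, while Thy1, Dcn and Lum stayed under 1 FPKM throughout. The fibroblast sum was 2870 to 2953 FPKM per Biotin-positive library and 4411 to 4667 FPKM per Biotin-negative one. The gap between these sums rests on Fn1, at a mean of 172 FPKM in Biotin-positive and 2017 FPKM in Biotin-negative libraries. Of the 9 markers 7 were lower in Biotin-positive libraries. The other 2 were higher: Vim (means 1418 against 658 FPKM) and S100a4 (722 against 539 FPKM). Of 20 epithelial markers only Krt7 and Krt8 reached it. The epithelial sum was 46.1 to 48.3 FPKM in Biotin-positive libraries and 1.56 to 1.78 FPKM in Biotin-negative ones. Without these keratins it was 1.03 to 1.69 and 1.30 to 1.53 FPKM, with none of them at 1 FPKM in any library. Among these low markers Krt5 was at 0 in all 6 libraries, and Cdh1 was at 0 in every Biotin-positive library and at 0.0128, 0 and 0.0227 FPKM in Biotin-negative ones. Krt14 was at 0.199, 0.324 and 0.249 FPKM in Biotin-positive libraries and at 0 in every Biotin-negative one, and Grhl2 at 0.116, 0.0818 and 0.156 FPKM in Biotin-positive libraries and at 0.0343, 0.0196 and 0.0203 FPKM in Biotin-negative ones. Muc1 and Dsp went the other way, also without overlap. Muc1 averaged 0.473 FPKM in Biotin-positive and 0.753 FPKM in Biotin-negative libraries, and Dsp 0.0347 and 0.0634 FPKM. None of the 4 endothelial markers and 2 of the 6 leukocyte markers (Cd68 and Lyz2) reached 1 FPKM. The part that the keratin difference plays in the network's values was not tested. In bulk RNA, fewer cells that express a gene and less RNA per cell cannot be told apart.

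The network changed its make-up in Biotin-positive cells. Of its 10 genes 9 were tested, of which 5 were higher (Mxd1, Mxd3, Mxi1, Mnt and Odc1) and 4 lower (Myc, Max, Mlx and Mxd4). The calls are limma's at a Benjamini-Hochberg adjusted p under 0.05 over 11029 genes. This contrast is broad: 73.9% of all tested genes passed, 37.8% higher and 36.1% lower. Having all 9 called is therefore close to what most genes show, and the sizes and directions carry the description. For each of the 9 genes the groups did not overlap, as for 76.9% of all tested genes. The median log2 difference was 0.21 over the 9 genes and 0.01 over all tested genes. The largest difference was the fall of Mxd4, and the largest rises were those of Odc1 and Mxd3.

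**Figure D1:**
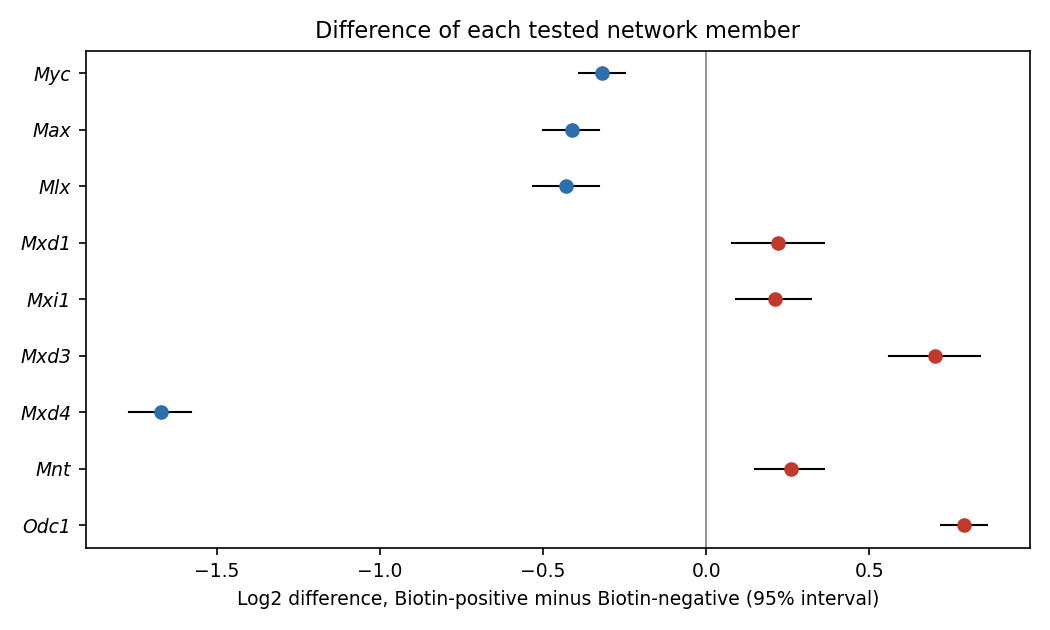
Log2 difference of each tested member on the log2(FPKM + 1) scale (x axis, Biotin-positive minus Biotin-negative), with limma's 95% interval as a line and members down the page by role. Mxd4 stands alone at -1.67, Myc, Max and Mlx lie between -0.32 and -0.43, and the remaining members lie between 0.21 and 0.79.

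Short promoter windows of the members were searched for the network's own binding sequence. RefSeq windows on GRCm38.p6, running from 250 bases before to 50 bases after an annotated start, were matched by symbol for 9 of the 10 members, all but Myc, and gave 11 windows. The E-box CACGTG, which reads the same on both strands, occurred in the windows of 4 members, Mxd4, Max, Mlx and Mnt, and in 7.15% of all 32851 windows of this length. These are the 3 members with a window that fell, and 1 of the 5 that rose. The split rests on few genes and lacks Myc, and a link between the E-box and the direction of change was not tested. The match is a description and not a measured binding site. The 4 windows are shown 5′ to 3′ on the gene's strand with the E-box in capitals.
Mxd4 (chr5:34187661-34187960, minus strand): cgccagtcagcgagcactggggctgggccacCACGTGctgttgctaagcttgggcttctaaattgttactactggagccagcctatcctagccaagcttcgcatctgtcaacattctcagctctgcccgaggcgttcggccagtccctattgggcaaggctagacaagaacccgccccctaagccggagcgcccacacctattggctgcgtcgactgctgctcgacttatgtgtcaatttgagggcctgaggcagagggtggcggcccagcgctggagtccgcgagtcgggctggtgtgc
Max (chr12:76962199-76962498, minus strand): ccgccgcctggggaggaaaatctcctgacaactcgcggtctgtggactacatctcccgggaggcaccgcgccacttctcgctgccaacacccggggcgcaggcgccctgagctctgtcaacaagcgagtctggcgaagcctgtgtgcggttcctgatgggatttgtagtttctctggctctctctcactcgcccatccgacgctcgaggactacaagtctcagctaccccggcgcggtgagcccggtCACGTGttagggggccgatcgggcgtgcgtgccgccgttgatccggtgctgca
Mlx (chr11:101087040-101087339, plus strand): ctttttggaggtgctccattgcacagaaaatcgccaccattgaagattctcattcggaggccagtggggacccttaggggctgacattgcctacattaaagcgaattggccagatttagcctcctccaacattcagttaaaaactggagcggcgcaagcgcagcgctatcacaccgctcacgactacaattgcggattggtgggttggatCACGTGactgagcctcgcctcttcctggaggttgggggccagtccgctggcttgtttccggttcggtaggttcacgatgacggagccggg
Mnt (chr11:74830674-74830973, plus strand): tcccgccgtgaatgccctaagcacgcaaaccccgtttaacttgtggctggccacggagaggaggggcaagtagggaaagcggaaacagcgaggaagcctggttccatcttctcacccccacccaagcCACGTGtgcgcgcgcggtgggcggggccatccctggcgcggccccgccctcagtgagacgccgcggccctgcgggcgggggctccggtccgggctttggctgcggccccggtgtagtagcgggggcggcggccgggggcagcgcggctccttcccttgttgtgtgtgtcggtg
The E-box began at position -219 from the annotated start in Mxd4, at -3 in Max, at -40 in Mlx and at -123 in Mnt. The windows of Mxd1, Mxd3, Mxi1, Mycn and Odc1 did not hold these letters. Sequence outside the windows, such as introns farther into a gene, was not searched, so these genes may carry the E-box elsewhere. An E2F motif (TTTCCCGC, TTTCGCGC, TTTGCCGC or TTTGGCGC on either strand, matches may overlap), found in 2.26% of all windows, occurred among the members only in the window of Mycn.

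Myc, the activating partner, was lower in Biotin-positive cells but stayed among the most abundant members. Its gene (ENSMUSG00000022346, chr15:61985391-61990374 on GRCm38, as for all genes here) was measured at 148, 145 and 149.6 FPKM in Biotin-positive libraries and at 191, 180 and 181 FPKM in Biotin-negative ones. Every Biotin-positive library lay below every Biotin-negative one. The means were 148 ± 2.20 and 184 ± 6.15 FPKM (SD, n = 3 each), a ratio of 0.800 and a log2 difference of -0.32 (SE 0.0321, limma adjusted p = 2.68e-05). Larger falls were found in 23.9% of the tested genes. Mycn, the paralog best known from neural and embryonic cells (ENSMUSG00000037169, chr12:12936093-12941914), was listed at 0 in all 6 libraries. Mycl, the third paralog, was listed at 0 in all Biotin-positive libraries and at 0.0823, 0 and 0 FPKM in Biotin-negative ones. Myc was thus the only MYC gene above 0.1 FPKM in any library.

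Max, the obligate partner of MYC and MXD proteins (ENSMUSG00000059436, chr12:76937269-76962201), fell by a similar amount. It was at 29.5, 28.3 and 29.2 FPKM in Biotin-positive libraries and at 40.4, 37.9 and 38.7 FPKM in Biotin-negative ones, with no overlap. The log2 difference was -0.41 (SE 0.0368, limma adjusted p = 1.22e-05). The ratio of Myc to Max level was 5.09 ± 0.0682 in Biotin-positive libraries and 4.73 ± 0.0365 in Biotin-negative ones (SD, n = 3 each). Mga, which encodes a large MAX-binding repressor, also fell, to 6.90 ± 0.0944 FPKM in Biotin-positive cells against 8.46 ± 0.547 FPKM in Biotin-negative cells (log2 difference -0.26, limma adjusted p = 0.00288).

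Among the MXD genes and Mnt, Mxd4 fell while Mxd1, Mxd3, Mxi1 and Mnt rose. Mxd4, an MXD protein gene associated with resting and differentiating cells (ENSMUSG00000037235, chr5:34173883-34187720), was at 9.27, 9.48 and 8.90 FPKM in Biotin-positive libraries and at 32.4, 30.8 and 31.5 FPKM in Biotin-negative ones. The lowest Biotin-negative value was over 20 FPKM above the highest Biotin-positive value. The ratio of means was 0.292 and the log2 difference -1.67 (SE 0.0416, limma adjusted p = 9.95e-09). Only 80 of the 11029 tested genes had a larger fall, which is 0.725% of them. An antisense gene, Gm42846, shares 6.06% of the exon bases of Mxd4 and was not analysed here. Strandedness is not given in the sources used here, so reads of a gene and of an overlapping gene on the other strand cannot be told apart.

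Mxd3, the MXD gene linked in mice to proliferating cells in S phase (ENSMUSG00000021485, chr13:55325168-55329823), went the other way. It was at 20.7, 21.0 and 18.2 FPKM in Biotin-positive libraries and at 12.4, 11.9 and 11.3 FPKM in Biotin-negative ones. The groups did not overlap, although 1 Biotin-positive library lay below the other two. The ratio of means was 1.68 and the log2 difference 0.70 (SE 0.0617, limma adjusted p = 1.11e-05). Larger rises were found in 10.2% of the tested genes. Prelid1, on the other strand, shares 4.43% of its exon bases and rose as well, to 190.0 ± 8.59 FPKM in Biotin-positive cells against 134 ± 3.87 FPKM in Biotin-negative cells. The part of that overlap in the Mxd3 level was not tested.

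Mxi1, Mnt and Mxd1 rose by small amounts. Mxi1, also called MXD2 (ENSMUSG00000025025, chr19:53310518-53375810), was at 22.4, 23.2 and 23.1 FPKM in Biotin-positive libraries and at 19.3, 18.7 and 21.1 FPKM in Biotin-negative ones (log2 difference 0.21, SE 0.0498, limma adjusted p = 0.00507). Mnt, which encodes the broadly expressed MAX-binding repressor (ENSMUSG00000000282, chr11:74830920-74845725), was at 8.92, 8.65 and 8.55 FPKM in Biotin-positive libraries and at 7.17, 6.98 and 7.20 FPKM in Biotin-negative ones (log2 difference 0.26, SE 0.0466, limma adjusted p = 0.00102). Mxd1, the founding MXD gene (ENSMUSG00000001156, chr6:86647042-86669161), was the lowest repressor. It was at 1.90, 1.68 and 1.86 FPKM in Biotin-positive libraries and at 1.37, 1.496 and 1.38 FPKM in Biotin-negative ones (log2 difference 0.22, SE 0.0624, limma adjusted p = 0.0117). The ratios of means were 1.16 for Mxi1, 1.22 for Mnt and 1.28 for Mxd1, whose low level makes its log2 difference the most understated. The groups did not overlap for any of these 3 genes, while 29.3% to 33.1% of the tested genes had larger rises on the log2(FPKM + 1) scale.

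**Figure D2:**
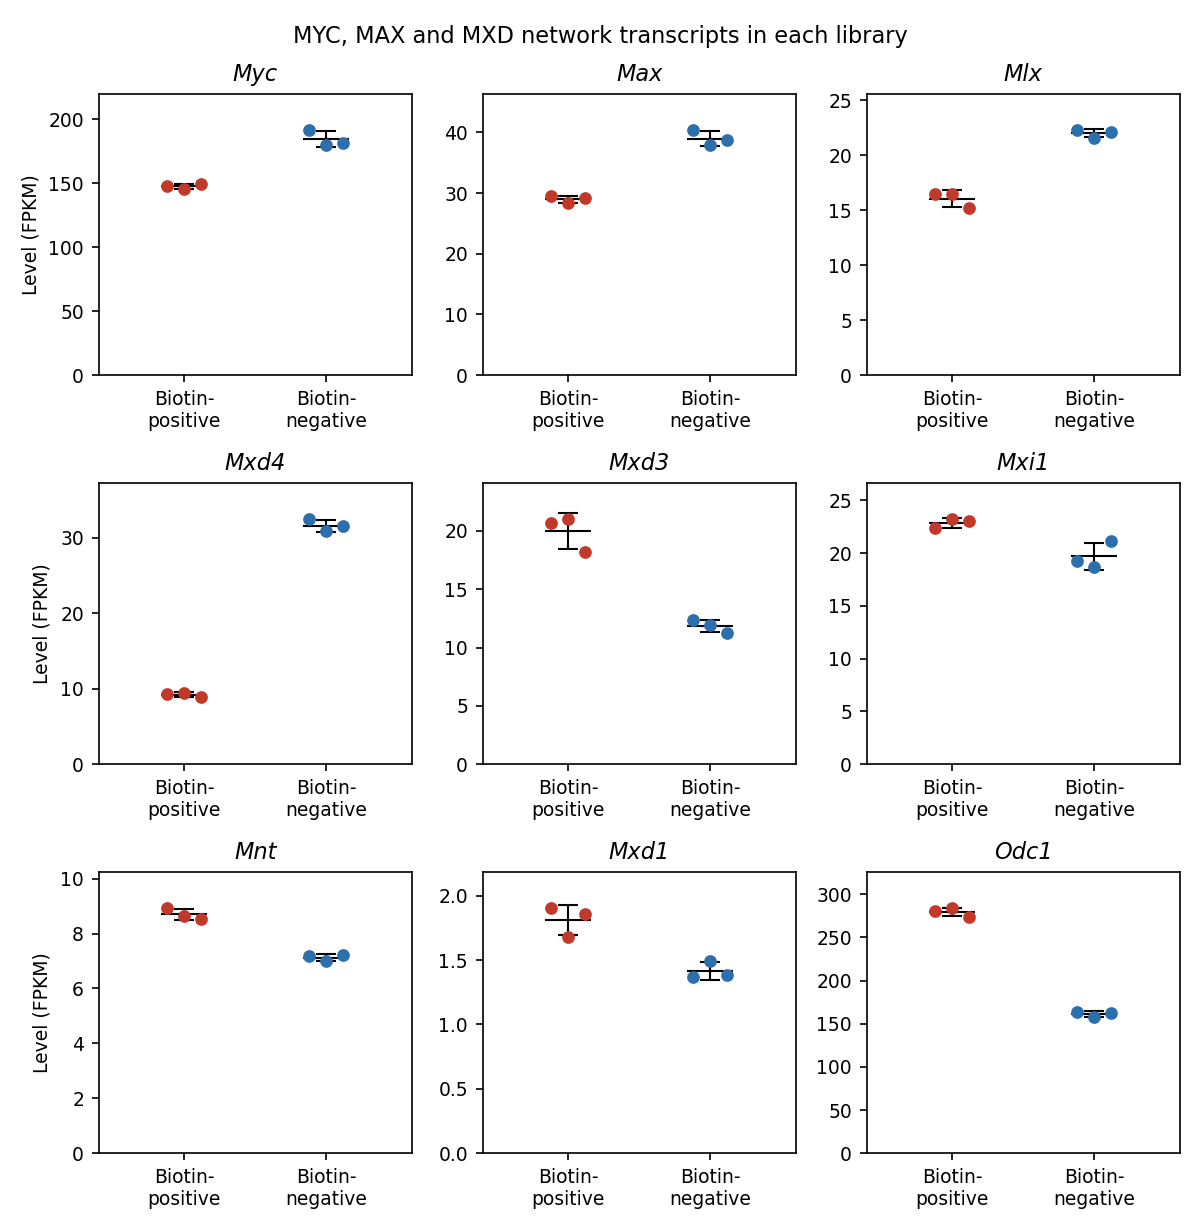
FPKM of the 9 tested members (y axes from 0, a scale per gene) in the 3 Biotin-positive and 3 Biotin-negative libraries; points are libraries, the long bar is the mean and the short caps are ± 1 SD. No panel shows overlap between the groups, and Mxd4 averages 9.22 FPKM in Biotin-positive and 31.6 FPKM in Biotin-negative libraries, the ratio of means farthest from 1 among the 9.

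Summed over Mxd1, Mxd3, Mxd4, Mxi1 and Mnt, the repressor level was 60.6 to 64.0 FPKM in Biotin-positive libraries and 69.9 to 72.6 FPKM in Biotin-negative ones. The sum was lower by 12.7% of its Biotin-negative mean, while Mxd4 alone stood at 0.292 of its own. Mxd4 supplied 14.7% ± 0.0734 of this sum in Biotin-positive libraries and 44.1% ± 0.617 in Biotin-negative ones (SD, n = 3 each). Mxd3 supplied 31.9% ± 1.57 in Biotin-positive libraries and 16.5% ± 0.848 in Biotin-negative ones, and Mxi1 36.6% ± 1.36 and 27.5% ± 1.46. The leading repressor transcript was thus Mxi1, followed by Mxd3, in Biotin-positive cells, and Mxd4 in Biotin-negative cells. Myc made up 70.2% ± 0.903 of the summed Myc and repressor level in Biotin-positive libraries and 72.0% ± 0.524 in Biotin-negative ones. The highest Biotin-positive share, 71.2%, lay just under the lowest Biotin-negative share, 71.4%. These sums are descriptions without a test, and transcript levels do not give protein amounts.

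**Figure D3:**
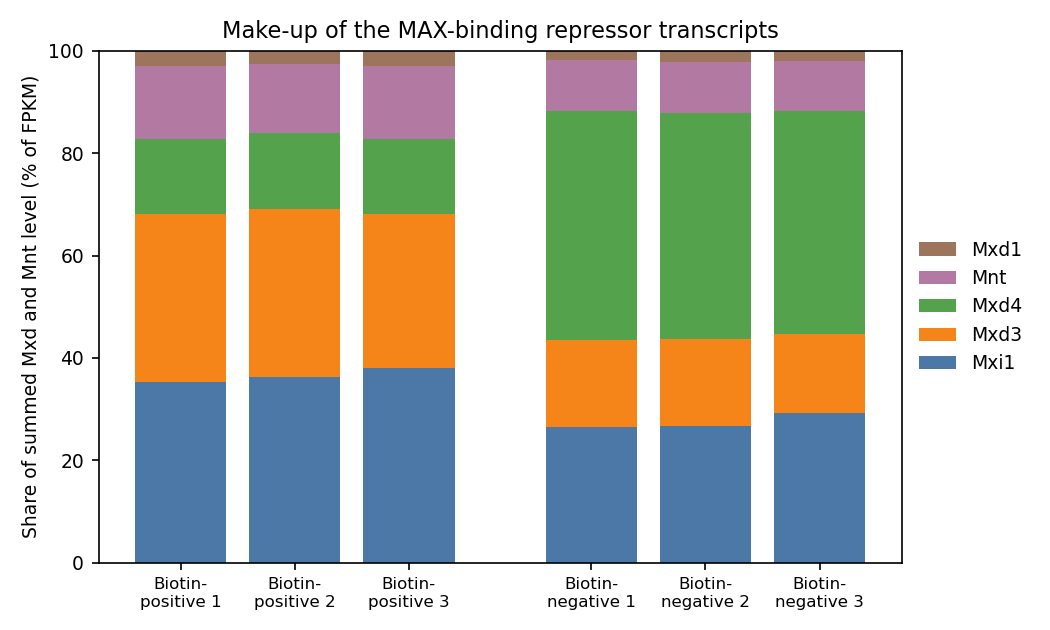
Share of each repressor gene in the summed FPKM of Mxd1, Mxd3, Mxd4, Mxi1 and Mnt (y axis, percent), 1 bar per library. The Mxd4 segment is 14.7 to 14.8% in Biotin-positive libraries and 43.4 to 44.7% in Biotin-negative ones.

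The order of levels in Biotin-positive cells ran Odc1, Myc, Max, Mxi1, Mxd3, Mlx, Mxd4, Mnt, Mxd1 and Mycn. In Biotin-negative cells it ran Myc, Odc1, Max, Mxd4, Mlx, Mxi1, Mxd3, Mnt, Mxd1 and Mycn. Neighbours in each order had library values that did not overlap, except Mxd4 and Mnt in Biotin-positive cells, at 9.22 ± 0.298 and 8.70 ± 0.194 FPKM. Odc1 and Myc changed places at the top, and Mxd4 stood below Mlx, Mxi1 and Mxd3 in Biotin-positive cells but above them in Biotin-negative cells.

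Odc1 rose in the cells in which Myc fell. The gene (ENSMUSG00000011179, chr12:17544794-17551505) was at 281, 284 and 274 FPKM in Biotin-positive libraries and at 164, 158 and 162 FPKM in Biotin-negative ones. All Biotin-positive values lay over 100 FPKM above all Biotin-negative ones. The ratio of means was 1.73 and the log2 difference 0.79 (SE 0.0290, limma adjusted p = 6.36e-08). The ratio of Odc1 to Myc level was 1.90, 1.95 and 1.83 in Biotin-positive libraries and 0.857, 0.874 and 0.895 in Biotin-negative ones. A processed pseudogene, Gm17709, matched 7.38% of the Odc1 transcript at 98% identity or more.

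Around Odc1, the polyamine genes went both ways. Of 20 genes listed 18 were tested, of which 7 rose, 5 fell and 6 did not pass; the arginase genes Arg1 and Arg2 were too low to test. The median log2 difference was 0.05. Of all tested genes 37.8% rose and 36.1% fell, so a list with genes on both sides is usual in this contrast. Near-identical matches cover 63.6% of the Oaz1 transcript and 67.4% of that of Dohh. Both genes are counted among the rises, but their levels are uncertain. Mtap, which salvages the methylthioadenosine left by polyamine synthesis, rose to 7.83 ± 0.187 FPKM in Biotin-positive cells against 3.47 ± 0.323 FPKM in Biotin-negative cells (limma adjusted p = 2.03e-06). Eif5a, the translation factor that receives a spermidine-derived hypusine, rose to 309.7 ± 6.08 FPKM in Biotin-positive cells against 167 ± 1.20 FPKM in Biotin-negative cells (limma adjusted p = 2.61e-08). The spermine oxidase gene Smox fell, to 5.73 ± 0.313 FPKM in Biotin-positive cells against 12.6 ± 1.18 FPKM in Biotin-negative cells (limma adjusted p = 3.09e-06). Sat2, a relative of the spermidine acetyltransferase gene, fell to 1.17 ± 0.121 FPKM in Biotin-positive cells against 2.90 ± 0.113 FPKM in Biotin-negative cells (limma adjusted p = 5.11e-06).

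Steps next to ornithine decarboxylase were named after their values were seen. The genes of spermidine synthase, which uses its product putrescine, and of spermine synthase, which acts on spermidine, fell: Srm was at 36.5 ± 0.800 FPKM in Biotin-positive cells and 46.3 ± 0.625 FPKM in Biotin-negative cells (limma adjusted p = 1.91e-05), and Sms at 19.5 ± 0.476 and 26.7 ± 0.735 FPKM (limma adjusted p = 1.2e-05). The decarboxylase genes Amd1 and Amd2, which supply the second substrate, did not pass, but over 99% of each transcript has near-identical matches elsewhere, so their levels are uncertain. Azin1, an inhibitor of the antizymes, rose to 52.6 ± 1.32 FPKM in Biotin-positive cells against 30.7 ± 0.483 FPKM in Biotin-negative cells (limma adjusted p = 1.71e-07). Oaz2, an antizyme that directs ornithine decarboxylase to degradation, rose as well, to 30.6 ± 1.17 FPKM in Biotin-positive cells against 21.0 ± 0.522 FPKM in Biotin-negative cells (limma adjusted p = 5.31e-06). The more abundant antizyme gene Oaz1 was at 491 ± 23.9 FPKM in Biotin-positive cells and 368 ± 6.26 FPKM in Biotin-negative cells (limma adjusted p = 1.64e-05). Its level is uncertain, with near-identical matches over 63.6% of its transcript.

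In the MLX branch Mlx and its partner gene Mlxip were lower, and the 2 target genes listed were higher. Mlx (ENSMUSG00000017801, chr11:101087277-101092207) was at 16.5, 16.5 and 15.2 FPKM in Biotin-positive libraries and at 22.3, 21.6 and 22.1 FPKM in Biotin-negative ones. The groups did not overlap, and the log2 difference was -0.43 (SE 0.0439, limma adjusted p = 2.81e-05). Psmc3ip, on the other strand, shares 19.3% of the Mlx exon bases and moved the opposite way, to 13.8 ± 0.950 FPKM in Biotin-positive cells against 9.91 ± 0.910 FPKM in Biotin-negative cells. Mlxip, the gene of MondoA, fell to 5.25 ± 0.215 FPKM in Biotin-positive cells against 7.02 ± 0.401 FPKM in Biotin-negative cells (log2 difference -0.36, limma adjusted p = 0.000576). Mlxipl, the gene of ChREBP, was listed at 0 in every Biotin-positive library and at no more than 0.0591 FPKM in Biotin-negative ones.

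Txnip and Arrdc4, arrestin-family genes known as targets of MondoA with MLX and as brakes on glucose uptake, both rose. A rise was called in 37.8% of all tested genes, and these 2 genes do not stand for MLX targets in general. Txnip was at 77.9, 77.4 and 75.1 FPKM in Biotin-positive libraries and at 6.29, 5.58 and 6.59 FPKM in Biotin-negative ones. All Biotin-positive libraries stood more than 60 FPKM above the others, a ratio of means of 12.5 and a log2 difference of 3.45 (SE 0.0548, limma adjusted p = 1.2e-09). Arrdc4 was at 4.28, 4.23 and 4.08 FPKM in Biotin-positive libraries and at 1.38, 1.16 and 1.23 FPKM in Biotin-negative ones (log2 difference 1.21, SE 0.0614, limma adjusted p = 3.97e-07).

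The Txnip promoter window is shown because its difference is the largest in the lists around the network. The arrangement of a carbohydrate response element, taken as 2 copies of CACGNG with 5 bases between them on either strand, was searched after the Txnip values were seen. It occurred in 16 of the 32851 windows, 0.0487%, and the Txnip window was among them, at position -85 from the annotated start. Because the arrangement was chosen after the values were seen, this low share gives the match no support. In the RefSeq sequence, 5′ to 3′ on the gene's strand, the match is in capitals.
Txnip (chr3:96557707-96558006, plus strand): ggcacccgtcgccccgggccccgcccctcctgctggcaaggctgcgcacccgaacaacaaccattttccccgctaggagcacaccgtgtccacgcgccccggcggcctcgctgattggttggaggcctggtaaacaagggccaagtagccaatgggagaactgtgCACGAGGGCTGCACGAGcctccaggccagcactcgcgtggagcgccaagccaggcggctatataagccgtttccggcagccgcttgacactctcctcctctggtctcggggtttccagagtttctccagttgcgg
The Arrdc4 window did not hold this arrangement but held the E-box CACGTG at position -193. The match is again a description, not evidence of binding in these cells.

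**Figure D4:**
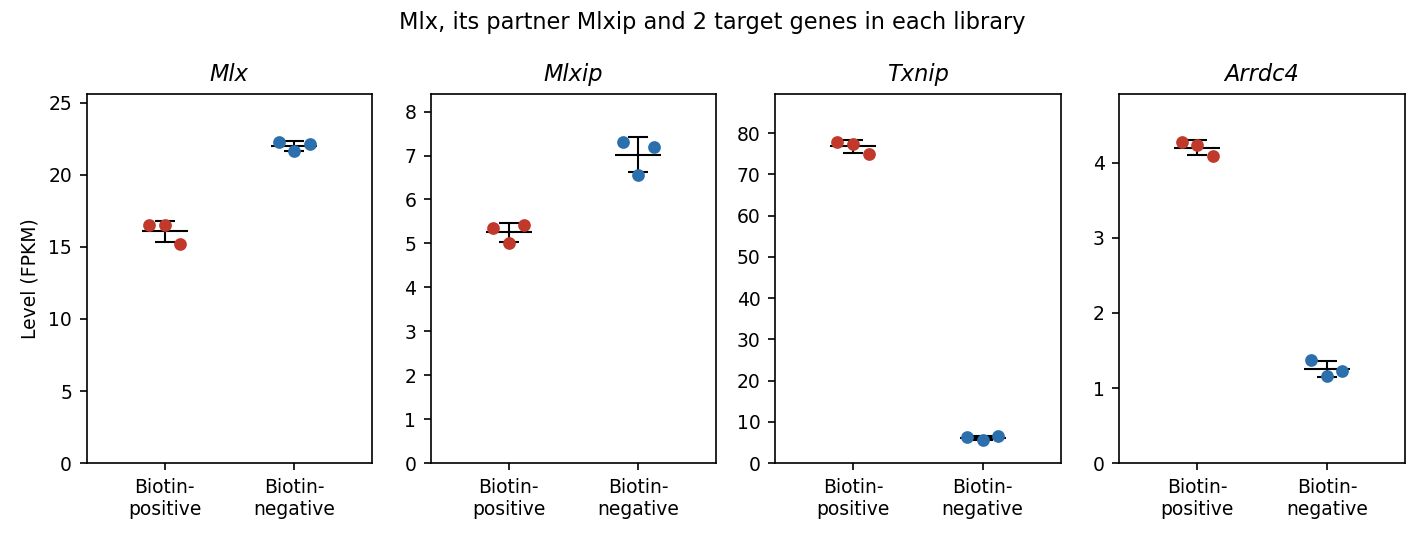
FPKM of Mlx, Mlxip, Txnip and Arrdc4 (y axes from 0, a scale per gene) in each Biotin-positive and Biotin-negative library, with the mean and ± 1 SD. Mlx and Mlxip are lower and Txnip and Arrdc4 higher in all Biotin-positive libraries.

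Genes that MYC is known to induce went both ways. Of 30 listed 29 were tested, of which 17 rose, 9 fell and 3 did not pass (Nop58, Ddx21 and Bop1), with a median log2 difference of 0.22. Over all tested genes 37.8% rose and 36.1% fell. Near-identical matches cover 85.6% of the Eno1 transcript, 81.0% of Hspe1, 71.1% of Hspd1 and 57.6% of Fbl. These genes are counted among the rises, but their levels are uncertain. The telomerase gene Tert stayed under 1 FPKM. The transferrin receptor gene Tfrc rose to 40.4 ± 0.184 FPKM in Biotin-positive cells against 11.6 ± 1.07 FPKM in Biotin-negative cells (log2 difference 1.72, limma adjusted p = 4.52e-08). Nme1, a nucleoside diphosphate kinase gene, rose to 47.1 ± 0.788 FPKM in Biotin-positive cells against 21.0 ± 0.942 FPKM in Biotin-negative cells (log2 difference 1.13, limma adjusted p = 5.53e-08). Ppan, a ribosome assembly gene, fell to 25.2 ± 0.928 FPKM in Biotin-positive cells against 39.5 ± 1.54 FPKM in Biotin-negative cells (log2 difference -0.63, limma adjusted p = 2.29e-06). Slc7a5, which encodes a large neutral amino acid transporter, fell to 92.4 ± 2.44 FPKM in Biotin-positive cells against 133 ± 4.81 FPKM in Biotin-negative cells (log2 difference -0.51, limma adjusted p = 2.72e-06).

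Of 8 genes that MYC is known to repress, 6 were tested: 1 rose, 4 fell and Cdkn1b did not pass, with a median log2 difference of -0.79. Over all tested genes 37.8% rose and 36.1% fell. The cell cycle inhibitor gene Cdkn1a rose to 26.8 ± 1.73 FPKM in Biotin-positive cells against 11.6 ± 0.723 FPKM in Biotin-negative cells (log2 difference 1.14, limma adjusted p = 5.1e-07). Ddit3, the stress transcription factor CHOP, fell to 171 ± 8.14 FPKM in Biotin-positive cells against 694 ± 12.9 FPKM in Biotin-negative cells (log2 difference -2.01, limma adjusted p = 2.58e-09). The receptor gene Pdgfrb fell to 14.4 ± 0.456 FPKM in Biotin-positive cells against 33.9 ± 2.14 FPKM in Biotin-negative cells (log2 difference -1.18, limma adjusted p = 1.6e-07). Pdgfrb is also 1 of the 9 tested fibroblast markers, of which 7 fell and 2 rose in the same libraries. Cdkn2b was listed at 0 in every library, and Ndrg2 stayed under 0.02 FPKM.

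Cofactors of both arms were measured in the same way. Of 12 genes listed as MYC coactivators 7 rose, 4 fell and Ep400 did not pass, with a median log2 difference of 0.14. The rises include Zbtb17 (log2 difference 0.27, limma adjusted p = 0.00271), whose product is a MYC partner in repression rather than a coactivator. Among all tested genes 37.8% rose and 36.1% fell. The helicase gene Ruvbl2 rose to 71.5 ± 1.82 FPKM in Biotin-positive cells against 49.5 ± 1.95 FPKM in Biotin-negative cells (limma adjusted p = 3.33e-06). Its partner Ruvbl1 rose too (log2 difference 0.60, limma adjusted p = 2.05e-06), although 81.7% of its transcript has a near-identical match, so its level is uncertain. The acetyltransferase gene Crebbp fell to 2.29 ± 0.174 FPKM in Biotin-positive cells against 3.40 ± 0.0937 FPKM in Biotin-negative cells (limma adjusted p = 3e-04). With libraries rescaled to an equal sum the number of these listed genes that rose was 4, without Ep300, Trrap and Wdr5.

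Of 11 genes of the SIN3 corepressor that MXD proteins and MNT recruit, 5 rose, 1 fell and 5 did not pass, with a median log2 difference of 0.24. Among all tested genes 37.8% rose and 36.1% fell. The histone-binding subunit gene Rbbp7 rose to 100.3 ± 2.56 FPKM in Biotin-positive cells against 74.7 ± 1.56 FPKM in Biotin-negative cells (limma adjusted p = 4.37e-06). The scaffold gene Sin3a rose to 12.9 ± 0.225 FPKM in Biotin-positive cells against 9.81 ± 0.429 FPKM in Biotin-negative cells (limma adjusted p = 0.000121). Ncor1, a corepressor scaffold, fell to 18.9 ± 0.992 FPKM in Biotin-positive cells against 30.3 ± 1.61 FPKM in Biotin-negative cells (limma adjusted p = 6.04e-06). With quantile normalization or an equal sum per library 2 of these genes fell, Hdac2 being the second. Hdac1 ranged within the groups from 2.82 to 5.43 FPKM in Biotin-positive libraries and from 0.292 to 4.30 FPKM in Biotin-negative ones, and did not pass; 70.9% of its transcript has a near-identical match, so its level is uncertain.

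Of 15 genes of MYC protein turnover 8 rose, 6 fell and Ppp2ca did not pass, with a median log2 difference of 0.15. Among all tested genes 37.8% rose and 36.1% fell. Aurka, a mitotic kinase gene whose product is known in human cells to stabilise MYC-family proteins, rose to 43.4 ± 0.160 FPKM in Biotin-positive cells against 12.9 ± 0.564 FPKM in Biotin-negative cells (log2 difference 1.67, limma adjusted p = 7.59e-09). Cip2a, the gene of a PP2A phosphatase inhibitor that protects MYC from degradation, rose to 22.9 ± 0.590 FPKM in Biotin-positive cells against 9.93 ± 1.73 FPKM in Biotin-negative cells (log2 difference 1.14, limma adjusted p = 8.89e-06). Ppp2r5a, a PP2A regulatory subunit gene, fell to 24.9 ± 0.969 FPKM in Biotin-positive cells against 36.4 ± 0.570 FPKM in Biotin-negative cells (limma adjusted p = 3.35e-06). Usp36, the gene of a nucleolar deubiquitinase that also stabilises MYC, fell to 8.72 ± 0.535 FPKM in Biotin-positive cells against 12.6 ± 0.677 FPKM in Biotin-negative cells (limma adjusted p = 9.05e-05). Protein levels were not measured in these data.

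**Figure D5:**
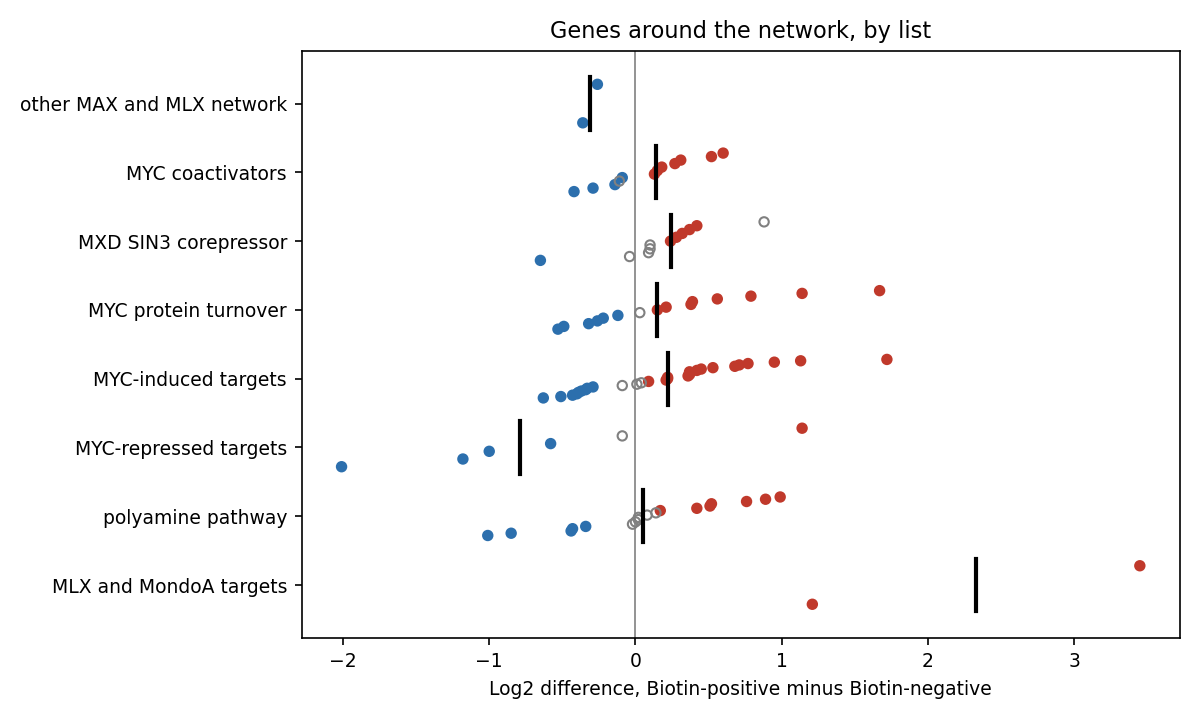
Log2 difference on the log2(FPKM + 1) scale (x axis, Biotin-positive minus Biotin-negative) of each tested gene in 8 lists around the network; filled points passed the test (red higher, blue lower), open points did not, and the black bar is the list's median. Most lists hold genes on both sides of 0, and Txnip, at 3.45, lies farthest out.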

How the data were processed

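RNA-seq of 3 Biotin-positive and 3 Biotin-negative L929 libraries was analysed. The authors deposited 1 table of FPKM values, 1 column per library, for 21929 genes, all labelled protein-coding. Per the submitters' processing notes, cutadapt 1.9.1, HISAT2 2.2.1, HTSeq 0.6.1 and GRCm39 were used; the program that made the FPKM, its denominator and strandedness are not given in the sources used here. The gene coordinates in the deposited table equal those of GENCODE vM21 on GRCm38 for 21616 of 21816 shared identifiers (99.1%) and for all 10 members, so they are given as GRCm38. FPKM is not a count, and whole reads were not recovered. The value of 1 read was fitted per library with vM21 exon lengths. At the best-fitting value 24.9% to 26.3% of low values per library came within 0.1 of a whole number. By spacing alone about 20% would at a value fixed beforehand, and picking the best of many trial values raises that share. The depth is therefore unknown, and precision is given as the SD over 3 libraries.

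Values were taken as log2(FPKM + 1), which understates changes of low genes. Genes that reached 1 FPKM in 3 or more libraries were tested with limma 3.58.1 in R 4.3.3 (eBayes with a trend, two-sided, Benjamini-Hochberg over all tested genes, threshold 0.05), and the procedure was tested on simulated data. The members and lists were chosen with earlier results of these data known. All members were named, and from each list up to 2 called genes with the largest rise and up to 2 with the largest fall, or every gene of lists of up to 4; other genes were named after their values were seen, and 1 gene that the rule names is not reported here. Near-identical matches (98% identity, at least 100 bases) were searched with blastn 2.17.0 among vM21 transcripts, and a level is called uncertain where they cover at least 50%. Alternatives are given in the closing section. Python 3.11.15, numpy 2.4.6, pandas 2.3.3 and matplotlib 3.10.9 were used.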

Additional observations from a re-analysis of the deposited data

How the results depend on the processing

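All 143 estimates for the 9 tested members under 16 alternatives kept their direction and stayed under an adjusted p of 0.05 (limma); Mxd1 was not tested at a minimum of 5 FPKM. The log2 difference ranged from -1.77 to -1.65 for Mxd4, from 0.67 to 0.80 for Odc1, from 0.65 to 0.77 for Mxd3 and from -0.45 to -0.29 for Myc. The least secure were Mxd1 (0.18 to 0.34, highest adjusted p = 0.0374) and Mxi1 (0.15 to 0.26, highest adjusted p = 0.0252). Of 288 list counts 284 stayed within 1.5 times. The exceptions were the rising MYC coactivators with an equal sum per library (4), the falling SIN3 genes with an equal sum per library (2) and with quantile normalization (2), and the rising MLX targets at a minimum of 5 FPKM (1, Arrdc4 no longer being tested). An equal sum per library moved the median log2 difference of all tested genes to -0.045. The difference in the Myc share, -1.77 percentage points, ranged from -2.26 to -1.37 when single libraries were left out. With the replicate number as a block 5 members were higher and 4 lower, as without it. Same-numbered libraries did not deviate together (r of 0.04, 0.01 and 0.01), and nothing in the labels pairs them. The unknown depth limits statements on genes near 0, such as Mycn.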
